A study of Mus musculus with 2 samples.

Results

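Arterial endothelial cells (ECs) of the neonatal mouse lung were examined in 2 single-cell libraries, 1 from mice kept in room air (21% O2) and 1 from mice kept in hyperoxia (80% O2) from birth to postnatal day 14. Both libraries came from whole lungs of C57BL/6 mice, with 8 lungs pooled in each, and hyperoxia from birth serves as a mouse model of bronchopulmonary dysplasia. The cells were chosen by their own transcripts. UMIs (unique molecular identifiers) count captured transcripts. A barcode was taken when 500 genes or more were detected, no more than 20% of its UMIs were mitochondrial, and it had at least 3 UMIs of the endothelial genes Cdh5, Pecam1 and Cldn5, no UMI of Ptprc or Epcam, at least 3 UMIs of the arterial genes Gja5, Bmx, Dkk2 and Gkn3, no UMI of the venous genes Slc6a2 and Car8 or of the lymphatic genes Prox1 and Mmrn1, and fewer than 3 UMIs of the cell cycle genes Mki67, Top2a and Rrm2. This gave 136 arterial ECs, 42 in room air and 94 in hyperoxia, of 3374 ECs that met the same limits apart from the arterial and venous genes and of 15520 cells kept. With 1 library per condition there was no replicate, no difference between the conditions could be tested, and every interval given here covers counting error only. Oxygen, the pool of mice and the library cannot be told apart.

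Arteries carry blood into the lung under pressure, and their endothelium keeps its identity through Notch signalling, with the ligand Dll4, the receptors Notch1 and Notch4, and the target genes Hey1 and Hes1. Large arteries are wrapped in elastic fibres, in which elastin (Eln) is laid on a microfibril scaffold (Fbn1), guided by fibulins (Fbln5) and latent TGF-beta binding proteins (Ltbp4), and crosslinked by lysyl oxidases (Lox). The lung capillaries lie downstream and consist of general capillary cells (gCap) and aerocytes (aCap), and the arterial cells are set against these and against venous cells below.

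Gja5 encodes the gap junction protein connexin 40, and Bmx a tyrosine kinase of arterial endothelium. The 250 bases before the RefSeq start of these genes (GRCm38.p6), the 2 of the 4 selection genes found in most of the arterial ECs, are shown because both genes define the cells. The Gja5 stretch lies at chr3:97032152-97032401 on the plus strand, inside the longer gene model of the GENCODE annotation, and the Bmx stretch at chrX:164258194-164258443 on the minus strand, just upstream of that gene model. Capitals mark the letters TGGGAA, or TTCCCA on the other strand, which the Notch partner RBPJ recognises. The letters ATTGTT or AACAAT, recognised by SOX factors, were searched in the same way and were not in these windows.

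Gja5: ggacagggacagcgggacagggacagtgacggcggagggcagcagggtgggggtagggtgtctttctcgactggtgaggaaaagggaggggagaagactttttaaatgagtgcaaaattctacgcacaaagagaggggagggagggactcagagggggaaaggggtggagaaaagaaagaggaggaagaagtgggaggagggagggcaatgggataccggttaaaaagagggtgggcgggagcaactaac
Bmx: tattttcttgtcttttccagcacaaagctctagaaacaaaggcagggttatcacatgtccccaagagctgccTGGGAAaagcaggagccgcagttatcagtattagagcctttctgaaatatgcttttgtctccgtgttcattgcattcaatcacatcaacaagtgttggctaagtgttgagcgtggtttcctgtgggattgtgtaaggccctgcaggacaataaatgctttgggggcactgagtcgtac

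TGGGAA on either strand occurred in 21.6% of 32851 RefSeq promoters of the same length, and ATTGTT in 9.42%. Among the 4 selection genes, the RBPJ letters occurred once, in Bmx, and the SOX letters in none.

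The libraries were of similar depth in these cells. The arterial ECs held 402769 UMIs in room air and 980909 in hyperoxia, with a median of 9124 UMIs per cell under room air (2515 to 27145) and 9174 under hyperoxia (1272 to 38456). The whole libraries held 4234 and 13223 barcodes, of which 17 barcode sequences occurred in both and none of those was an arterial EC. A doublet search marked 1 arterial EC in room air and 3 in hyperoxia. UMIs of the fibroblast, pericyte or smooth muscle genes Col1a1, Dcn, Mfap4, Pdgfra, Pdgfrb or Myh11 were present in 25 of the 42 and in 51 of the 94 cells. Summed over 6 fibroblast markers, these cells had 199 CPM (UMIs per 1e+06 of the summed total) in the room air library and 1152 CPM in the hyperoxia library, while B cells, which do not make these transcripts, had 2006 and 2308 CPM. Of the 6, 1 (Dcn) had no UMI in the room air arterial ECs. The part of free RNA in the results was not tested. The pools could also differ in sex. The X-inactivation transcript Xist was found in 6 of 42 and 31 of 94 arterial ECs, and its part in the results was not tested.

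Arterial ECs made up 4.64% of ECs in room air (42 of 905, exact Clopper-Pearson interval 3.36 to 6.22%) and 3.81% in hyperoxia (94 of 2469, 3.09 to 4.64%). The intervals overlap, which does not show that the shares were equal, and a difference in share could not be tested. After every EC had been thinned to 4000 UMIs, the shares were 3.73% (27 of 724) and 3.64% (74 of 2033). Cells just below the limit, with 2 UMIs of the arterial genes, numbered 13 in room air and 20 in hyperoxia, and cells just above it, with 3 UMIs, numbered 8 and 9. Cells were clustered within each library without the selection genes, as a description of how close they were. In room air 38 of the 42 lay in 1 cluster of 132 cells, and in hyperoxia 70 of the 94 lay in 1 cluster of 107 cells. They made up 28.8% of the room air cluster and 65.4% of the hyperoxia cluster. In these clusters 61 and 7 cells had no UMI of the arterial genes. The part of this difference in the results was not tested.

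The 4 selection genes were not spread evenly. Gja5 was found in 40 of 42 cells in room air (675 CPM) and in 93 of 94 in hyperoxia (704 CPM). Bmx was found in 25 of 42 (214 CPM) and in 74 of 94 (224 CPM). Dkk2, which encodes a secreted Wnt regulator, was found in 5 cells in room air (42.2 CPM) and 28 in hyperoxia (78.5 CPM). Gkn3, a gastrokine gene known as an arterial endothelial marker, was found in 7 cells in room air (57.1 CPM) and 22 in hyperoxia (199 CPM). All 4 genes were present in 3 of 42 and 13 of 94 cells. These values chose the cells, so they are a description.

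The label was checked on 22 further arterial genes that the selection did not use, 19 of which reached a mean of 50 CPM. The list was chosen with earlier results of these data known. The mean is that of the arterial ECs themselves, so the limit favours genes that are high in them. Nebl, Vegfc and Jag2 fell below it. Vegfc and Jag2 passed 50 CPM in gCap cells of hyperoxia, with Vegfc at 125 CPM, but not in those of room air. Of the 19 genes, 13 were at least 2-fold higher in the arterial ECs than in the remaining ECs in both libraries, against 4.51% of all 3615 genes at that level. Against gCap cells 11 of the 19 were at least 2-fold higher in both libraries (5.23% of all genes), against aCap cells 14 (6.22%), and against venous cells 12 (3.90%). The chemokine gene Cxcl12 was at 5738 CPM in room air and 3094 in hyperoxia, which was 10.8 times the gCap level in room air (10.1 to 11.6) and 5.39 times in hyperoxia (5.08 to 5.72). The zinc finger gene Mecom exceeded gCap 16.9 times (12.8 to 22.5) and 9.18 times (7.14 to 11.9). The connexin gene Gja4 exceeded gCap 2.65 times (2.27 to 3.09) and 2.00 times (1.79 to 2.24). The list did not move as 1 block. Sox17, a transcription factor of arterial endothelium, lay at 0.823 times the gCap level in room air (0.665 to 1.01) and 0.584 times in hyperoxia (0.505 to 0.673), so it did not set these cells apart from gCap cells, although it was 3.14 times (2.00 to 5.12) and 2.54 times (2.03 to 3.19) the venous level. Fbln5 separated arteries from gCap cells, 45.4 times (34.9 to 60.1) and 88.4 times (72.1 to 109.5), but not from veins, with 0.683 (0.600 to 0.777) and 1.17 times (1.11 to 1.24) the venous level.

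**Figure D1:**
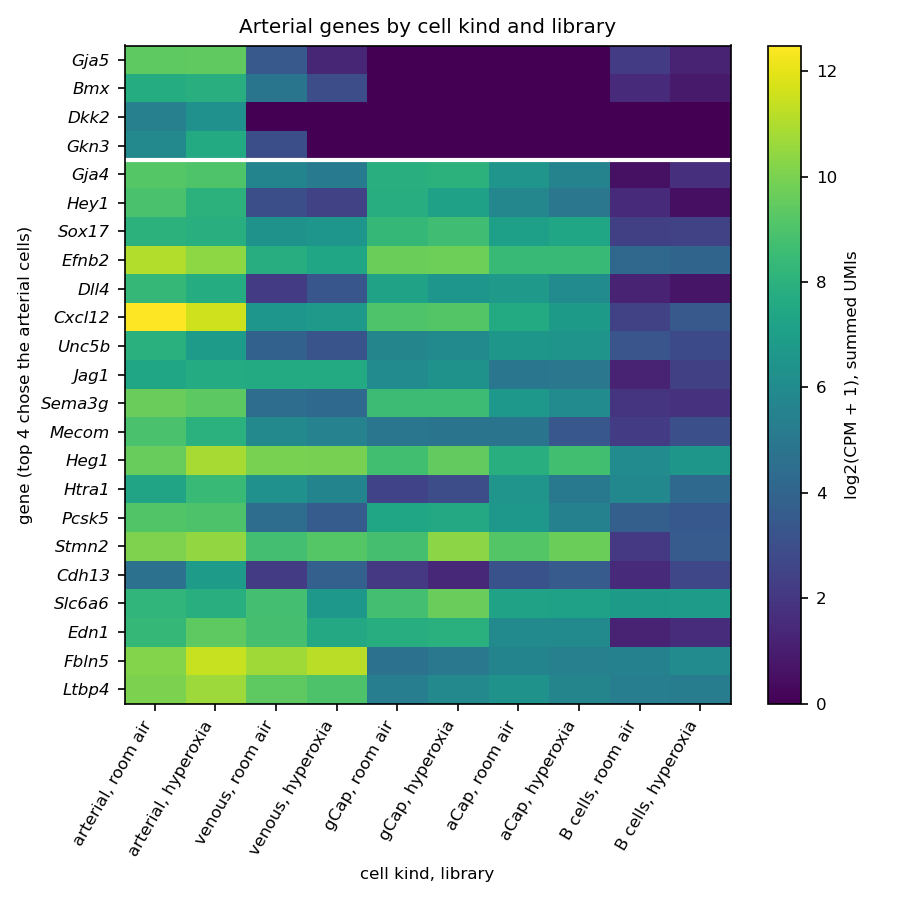
Level of 23 arterial genes (rows) in 5 kinds of cell of each library (columns), as log2 of summed CPM plus 1. The 4 genes above the white line chose the arterial cells and were excluded from the gCap and aCap cells by definition; Cxcl12 is brightest in the arterial columns, and Fbln5 and Ltbp4 are bright in arterial and venous cells.

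Outside the lists, the genes that led the arterial ECs over the remaining ECs in both libraries included Kcne3, Slc45a4, Efna5, Ptprr, Mbd4, Cmklr1, Thsd7a and Adgrg6. Kcne3, a potassium channel subunit, was 108.9 times higher in room air (32.1 to 574.6) and 34.1 times in hyperoxia (24.3 to 48.1). Efna5, an ephrin ligand, was 22.9 times (10.2 to 53.1) and 15.3 times (11.4 to 20.3) higher. Adgrg6, an adhesion G protein-coupled receptor, was 10.6 times (9.32 to 11.9) and 11.6 times (10.8 to 12.5) higher and was abundant, with 1033 and 1160.1 CPM. Markers usually given to other vessels were present too. Vwf, the von Willebrand factor gene, was at 1400.3 and 2061 CPM, between gCap (55.3 and 18.7) and venous cells (4081 and 2823). Lyve1, a hyaluronan receptor gene best known from lymphatic vessels, was at 1917 and 2727 CPM, while the lymphatic genes Prox1 and Mmrn1 were absent by definition.

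The arterial ECs were also split by Gkn3 and Dkk2. Both genes had a part in the selection, so the split and the values within it are a description and no test of a difference among the cells. Cells with a UMI of Gkn3 or Dkk2 numbered 9 of 42 in room air (21.4%, 10.3 to 36.8%) and 37 of 94 in hyperoxia (39.4%, 29.4 to 50%). In room air these 9 cells had 6912 CPM of Eln against 1957 in the other 33 cells, a ratio of 3.53 (3.17 to 3.94), and in hyperoxia 11841 against 5719 CPM, a ratio of 2.07 (1.98 to 2.17). Mgp, which encodes the calcification inhibitor matrix Gla protein, had a ratio of 19.0 in room air (15.6 to 23.3) and 2.74 in hyperoxia (2.61 to 2.87). The capillary genes were mixed. Of the 6 general capillary markers, Gpihbp1, Kit, Cd93 and Plvap were lower in the cells with Gkn3 or Dkk2 in both libraries. Their counting intervals lay below 1 but leave out the spread among cells. Aplnr had ratios of 0.700 (0.308 to 1.45) and 0.946 (0.518 to 1.70), and Sema3c of 0.578 (0.230 to 1.28) and 0.0656 (0.0174 to 0.175). Of the aerocyte markers at 50 CPM, Ednrb, an endothelin receptor gene, had a ratio of 3.47 in room air (2.44 to 4.95), where 1 cell held 37.9% of its UMIs, and 0.439 in hyperoxia (0.317 to 0.601). Emp2 had ratios of 0.533 (0.0974 to 1.94) and 4.43 (2.59 to 7.95). Gpihbp1, which anchors lipoprotein lipase on capillaries, had no UMI in the 9 cells and 793 CPM in the other 33, and in hyperoxia 25.2 against 255 CPM. The fatty acid transporter Cd36 had ratios of 0.220 (0.145 to 0.322) and 0.114 (0.0760 to 0.164), and the basement membrane collagen Col4a1 0.219 (0.146 to 0.317) and 0.0779 (0.0516 to 0.113). The shares of cells with Gkn3 or Dkk2, 21.4% and 39.4%, have overlapping intervals, and a difference between them was not tested. Values with and without these cells are given beside some of the results below, and the part of their share in those results was not tested.

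Between the conditions, the ratio of summed CPM in hyperoxia over room air was taken for the 3615 genes with a mean of at least 50 CPM. Its median was 0.01 on the log2 scale. A ratio of at least 2 was found for 131 genes (3.62%) and a ratio of at most 0.5 for 114 genes (3.15%). These shares are the background for every list below. From here on, each ratio between the conditions is given as a log2 ratio, and 2-fold refers to the ratio itself.

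**Figure D2:**
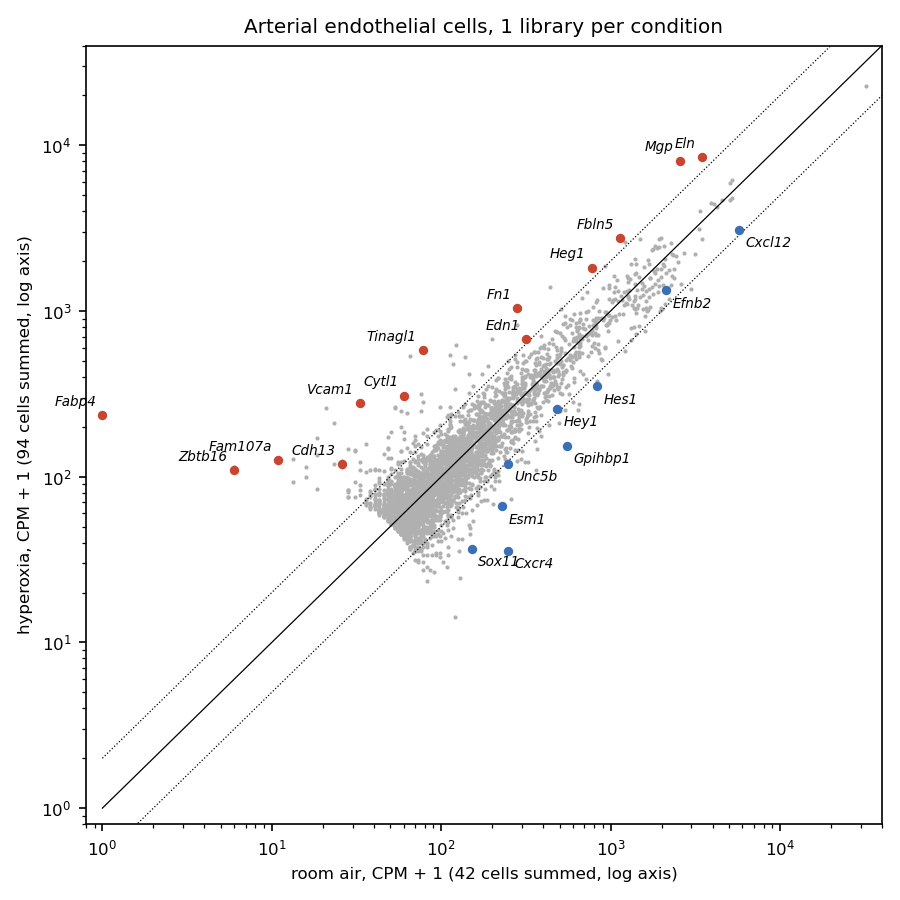
Summed CPM plus 1 of each gene in arterial ECs, room air on the x axis and hyperoxia on the y axis, both log axes, for genes with a mean of at least 50 CPM. The solid line is equality and the dotted lines are 2-fold; Eln, Mgp and Fbln5 lie above the upper dotted line, Esm1 and Cxcr4 below the lower one, and Fabp4 had no UMI in room air.

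Most elastic fibre genes at the level examined were at least 2-fold higher in hyperoxia in arterial ECs. Of 13 listed matrix genes 10 reached 50 CPM, with a median log2 ratio of 1.07. At least 2-fold higher were 6 of these (Eln, Mgp, Fbln5, Fbln2, Lox and Loxl2), and none was at least 2-fold lower. Summed over the 13 genes, the arterial level was 9358 CPM under room air against 23067 under hyperoxia. Venous cells went the other way, with 20264 against 13521 CPM. The venous sums rest on 27 and 102 cells, and the contrast was not tested. Eln was present in all 42 cells in room air, from 0.684 through a median of 8.64 to 205.0 UMIs per 10000, and in 92 of 94 cells in hyperoxia, from 0 through 47.7 to 422. The ranges overlap, and the median cell in hyperoxia lay above most room air cells. Summed, Eln rested on 1391 UMIs (3454 CPM) and 8283 UMIs (8444 CPM), a log2 ratio of 1.29 (1.21 to 1.37).

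Eln transcripts were also counted in B cells, and whether these were free RNA was not tested. B cells had 2665 CPM of Eln in room air and 1734 in hyperoxia, though the median B cell had 1 UMI, so the room air arterial level was near the B cell level and the hyperoxia level far above it. The Eln log2 ratio between the conditions was 0.78 (0.67 to 0.88) among cells with Gkn3 or Dkk2 and 1.55 (1.42 to 1.68) among cells without. In gCap cells of the same libraries Eln had a log2 ratio of -0.12 (-0.22 to -0.02), at 589.9 and 543 CPM, and the ratio in arterial ECs exceeded it by 1.41 (1.28 to 1.54).

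Mgp was found in 26 of 42 cells in room air, from 0 through a median of 1.43 to 236 UMIs per 10000, and in 80 of 94 in hyperoxia, from 0 through 40.0 to 362. Its log2 ratio was 1.66 (1.56 to 1.75), and 1 room air cell held 32.8% of the room air UMIs, without which and the top cell of hyperoxia the ratio was 2.12 (2.01 to 2.23). Its ratio in gCap cells was as large, 1.69 (1.46 to 1.92), but at a far lower level of 78.8 and 253 CPM, below the 1012 and 1337 CPM of B cells. Within the arterial ECs the Mgp log2 ratio was 0.72 (0.62 to 0.82) among cells with Gkn3 or Dkk2 and 3.51 (3.24 to 3.80) among the others.

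Fbln5, needed for elastic fibre assembly, went from 1139.6 to 2740.3 CPM, a log2 ratio of 1.27 (1.12 to 1.41), and was found in 28 of 42 and 87 of 94 cells. B cells had 43.6 and 63.8 CPM of it. The cells without Gkn3 or Dkk2 had 591 and 2401 CPM of Fbln5, a log2 ratio of 2.02 (1.79 to 2.27), against 0.39 (0.21 to 0.58) in the cells with either gene.

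Fbln2 had 506 and 1033 CPM, a log2 ratio of 1.03 (0.81 to 1.25), whereas gCap cells had a ratio of -1.17 (-1.44 to -0.89). The crosslinking enzyme gene Lox was found in 9 of 42 and 47 of 94 cells, with a ratio of 2.13 (1.51 to 2.81). Loxl2 rested on 15 and 79 UMIs with a ratio of 1.11 (0.30 to 2.02), and 1 hyperoxia cell held 39.2% of the UMIs of that library. Without the top cell of each library the Loxl2 ratio was 0.69 (-0.24 to 1.74). Among the genes short of 2-fold, Ltbp4 had a log2 ratio of 0.64 (0.48 to 0.79), the fibrillin gene Fbn1 0.80 (0.50 to 1.11) and the microfibril gene Mfap2 -0.10 (-0.55 to 0.36).

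**Figure D3:**
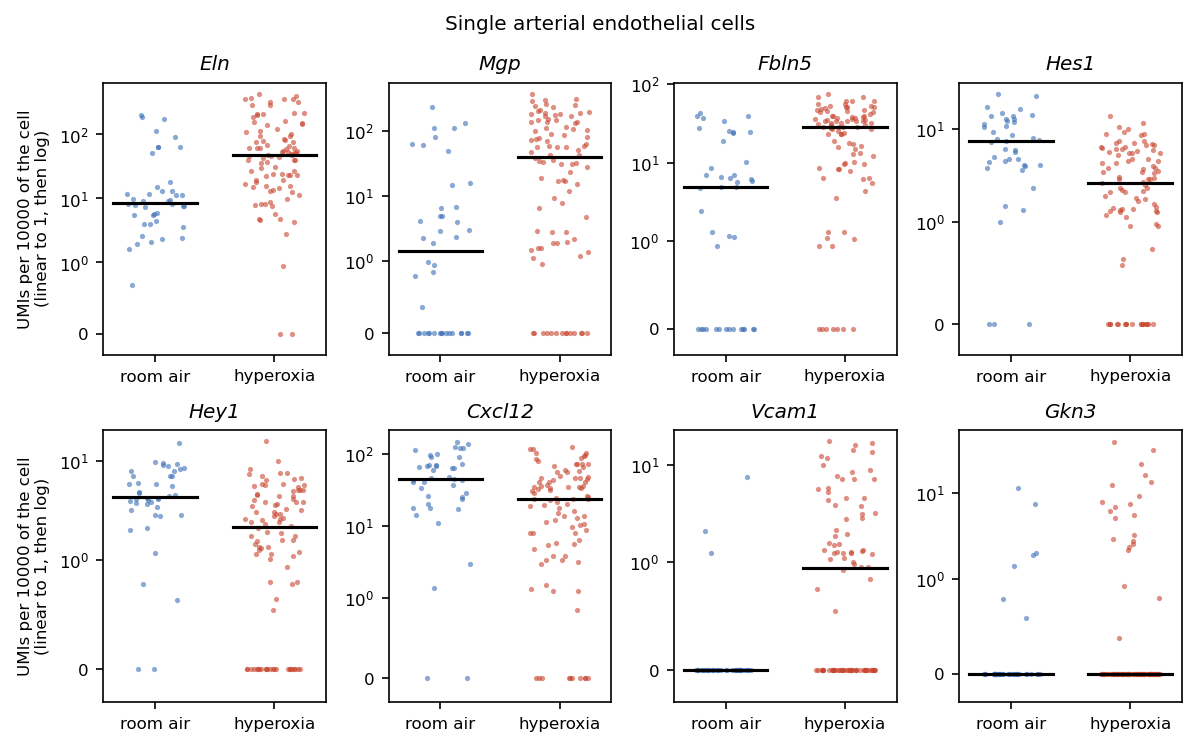
Each point is 1 arterial EC, with its UMIs of the gene per 10000 UMIs on the y axis (linear to 1, then log) by library, and the bar is the median. Eln, Mgp and Fbln5 have higher medians in hyperoxia and Hes1, Hey1 and Cxcl12 lower ones; Vcam1 was found in 3 of 42 room air cells and 51 of 94 hyperoxia cells, and the Gkn3 median was 0 in both.

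The basement membrane list was split. Of 12 genes at 50 CPM, 3 were at least 2-fold higher and 2 at least 2-fold lower, with a median log2 ratio of 0.36. Tinagl1, a secreted matricellular protein gene, was found in 12 of 42 and 73 of 94 cells, with 77.0 and 579 CPM and a ratio of 2.91 (2.39 to 3.48). The Tinagl1 ratio was 3.20 in gCap and 2.26 in aCap cells. Fn1, which encodes fibronectin, had 281 and 1041 CPM and a ratio of 1.89 (1.61 to 2.18). The metalloproteinase inhibitor gene Timp3 had 437 and 1385 CPM and a ratio of 1.66 (1.44 to 1.90), smaller than the 2.97 (2.84 to 3.11) of gCap cells. In aCap cells the Timp3 ratio was 1.84. On the lower side, Sparcl1 had 643 and 251 CPM, a ratio of -1.36 (-1.62 to -1.10), against -1.90 in gCap and -1.41 in aCap cells. The type IV collagen gene Col4a2 had 499 and 249 CPM, a ratio of -1.0 (-1.28 to -0.73), and Col4a1 889 and 503 CPM, a ratio of -0.82 (-1.02 to -0.62). In gCap cells both collagen genes were higher in hyperoxia, with ratios of 0.48 (0.42 to 0.55) and 0.65 (0.60 to 0.69). The arterial ratio lay below the gCap ratio by 1.49 for Col4a2 and by 1.47 for Col4a1 on the log2 scale.

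**Figure D4:**
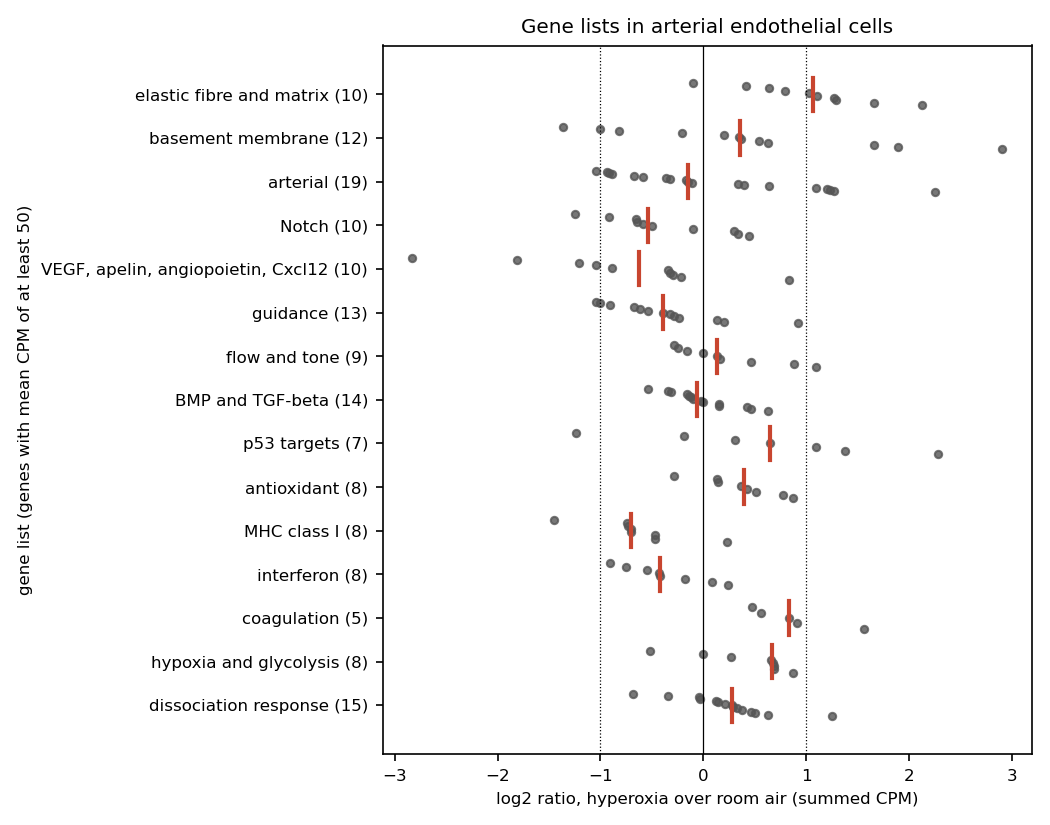
Log2 ratio of hyperoxia over room air in arterial ECs for each gene (points) of 15 lists, with the list median as a red bar and the number of genes at 50 CPM in brackets; dotted lines mark 2-fold. The median is 1.07 for the elastic fibre and matrix list, -0.54 for Notch and -0.62 for the VEGF, apelin, angiopoietin and Cxcl12 list.

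Of 10 Notch pathway genes at 50 CPM, 7 were lower in hyperoxia, against 1771 of all 3615 genes. The list had a median log2 ratio of -0.54, and 1 gene, the target gene Hes1, was at least 2-fold lower. Hes1 was found in 39 of 42 cells in room air, from 0 through a median of 7.42 to 24.1 UMIs per 10000, and in 77 of 94 in hyperoxia, from 0 through 2.65 to 13.9. Its summed level was 834 and 349.7 CPM, a log2 ratio of -1.25 (-1.48 to -1.03), and gCap cells had nearly the same ratio, -1.21 (-1.33 to -1.09). Hey1, another Notch target gene, had 482 and 255 CPM and a ratio of -0.92 (-1.19 to -0.64), against -0.66 in gCap and -0.81 in aCap cells. The related gene Hey2, under 50 CPM, went the other way. Without the top cell of each library it had 3 and 21 UMIs and a ratio of 1.52 (-0.23 to 3.90). The ligand gene Dll4 had 320.3 and 213 CPM, a ratio of -0.59 (-0.91 to -0.26), and the feedback gene Nrarp a ratio of -0.64 (-1.0 to -0.28). In gCap and aCap cells Dll4 had -0.63 and -0.69, and Nrarp -1.28 and -0.27. The receptor gene Notch1, at 660.4 and 617 CPM, had -0.10 (-0.31 to 0.11), and the ligand gene Jag1 0.34 (-0.08 to 0.77). Among cells with and without Gkn3 or Dkk2, Hes1 had ratios of -1.62 (-2.01 to -1.22) and -1.02 (-1.29 to -0.75), and Hey1 -0.94 (-1.44 to -0.43) and -0.85 (-1.2 to -0.51).

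Part of the growth factor and chemokine receptor genes was at least 2-fold lower. Of 10 genes of the VEGF, apelin, angiopoietin and Cxcl12 list at 50 CPM, 4 were at least 2-fold lower and none at least 2-fold higher, with a median log2 ratio of -0.62. Cxcr4, the receptor of Cxcl12, was found in 27 of 42 and 20 of 94 cells, at 246 and 34.7 CPM, a ratio of -2.83 (-3.43 to -2.25). B cells express it at 235 and 284 CPM. Esm1, a gene of endothelial tip cells, had 228 and 65.2 CPM, a ratio of -1.81 (-2.29 to -1.33), and 3 cells held 76.6% of its hyperoxia UMIs. The Esm1 ratio was -1.71 in gCap and -2.19 in aCap cells. Kdr, which encodes VEGF receptor 2, had 293 and 126 CPM, a ratio of -1.21 (-1.59 to -0.84), against -0.48 (-0.59 to -0.37) in gCap cells. The apelin receptor gene Aplnr had a ratio of -1.04 (-1.65 to -0.42). The VEGF receptor gene Flt1 and the angiopoietin receptor gene Tek did not pass 2-fold, with -0.22 (-0.40 to -0.04) and -0.34 (-0.57 to -0.11). Ackr3, the other receptor of Cxcl12, was the only 1 of these 10 genes that was higher in hyperoxia. Its log2 ratio was 0.83 (0.09 to 1.63), at 47.2 and 83.6 CPM.

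Cxcl12 itself, with the most UMIs of the listed arterial genes in both libraries, was found in 40 of 42 and 84 of 94 cells, from 0 through medians of 45.1 and 23.4 to 146 and 123 UMIs per 10000. Its ratio was -0.89 (-0.97 to -0.81), while gCap cells had 0.11 (0.01 to 0.22) and aCap cells, at 197 and 109 CPM, had -0.85. The ratio was -1.66 (-1.81 to -1.51) among cells with Gkn3 or Dkk2 and -0.48 (-0.58 to -0.39) among those without. The guidance genes had a median of -0.39 over 13 genes, 1 of them at least 2-fold lower. This was the netrin receptor gene Unc5b, at 246 and 119 CPM with a ratio of -1.04 (-1.44 to -0.64), against 0.21 (-0.13 to 0.54) in gCap cells. The ephrin gene Efnb2, which marks arteries against veins, had 2120.3 and 1331 CPM, a ratio of -0.67 (-0.80 to -0.55), against 0.07 (-0.02 to 0.15) in gCap cells.

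**Figure D5:**
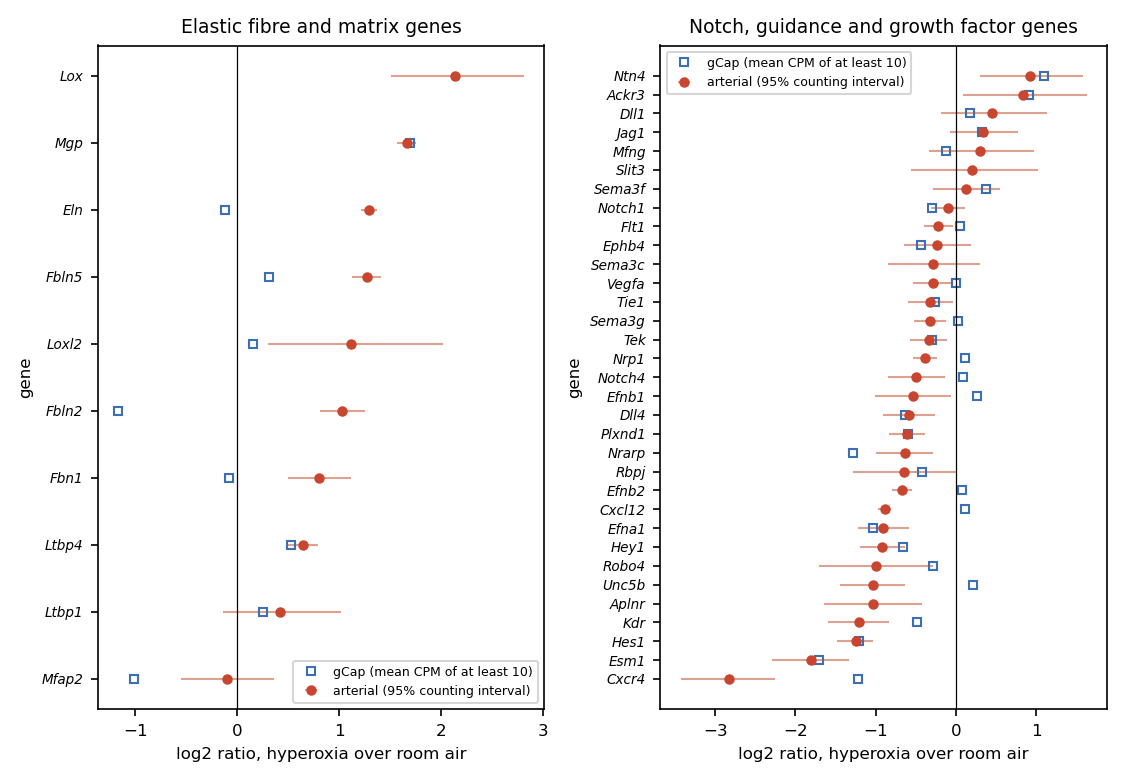
Log2 ratio of hyperoxia over room air for the matrix genes (left) and the Notch, guidance and growth factor genes (right), in arterial ECs (circles, bars are 95% counting intervals) and in gCap cells (squares, shown where the gCap mean is at least 10 CPM and the gene did not choose gCap cells). Eln, Fbln5 and Fbln2 lie to the right of their gCap values, and Cxcl12, Efnb2, Unc5b and Cxcr4 to the left. Values of aCap cells are not drawn.

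The 19 other arterial genes did not share a direction. Their median log2 ratio was -0.15, with 5 at least 2-fold higher and 1 at least 2-fold lower. The higher genes were Htra1, Cdh13, Edn1, Fbln5 and Heg1. Heg1, a receptor at endothelial junctions, was found in 39 of 42 cells in room air, with a median of 5.59 UMIs per 10000 (0 to 21.3), and in all 94 in hyperoxia, with a median of 17.9 (1.47 to 61.7). Its log2 ratio was 1.23 (1.06 to 1.41), against 0.77 in gCap and 0.83 in aCap cells. The serine protease gene Htra1 had 154 and 354 CPM, a ratio of 1.20 (0.81 to 1.61). Cdh13, which encodes T-cadherin, rested on 10 and 116 UMIs, a ratio of 2.25 (1.32 to 3.35). Edn1, the precursor of the vasoconstrictor endothelin, had 315 and 676 CPM, a ratio of 1.10 (0.82 to 1.39), against 0.14 (-0.02 to 0.31) in gCap cells. Mecom, which led the arterial cells, had 484 and 252 CPM, a ratio of -0.94 (-1.22 to -0.66), against -0.06 in gCap and -1.51 in aCap cells. Of the other flow and tone genes, Nos3 (endothelial nitric oxide synthase) had a ratio of 0.88 (0.30 to 1.5), and the shear-responsive factor genes Klf2 and Klf4 had -0.16 (-0.29 to -0.02) and 0.46 (0.27 to 0.66).

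Of 3 adhesion and chemokine genes at 50 CPM, 1 (Vcam1) was at least 2-fold higher, and of 5 coagulation genes 1 (Plat). The leukocyte adhesion gene Vcam1 was found in 3 of 42 cells in room air, with 8 of its 13 UMIs in 1 cell, and in 51 of 94 in hyperoxia. Its level was 32.3 and 276 CPM, a log2 ratio of 3.1 (2.30 to 4.03). Without the top cell of each library the Vcam1 ratio was 4.34 (3.1 to 5.97). B cells had 20.2 and 42 CPM of Vcam1. Icam1 and Icam2, adhesion genes too, had 0.56 (0.05 to 1.09) and 0.13 (-0.09 to 0.35). The tissue plasminogen activator gene Plat had 278 and 822 CPM, a ratio of 1.56 (1.28 to 1.86), against 0.24 (-0.06 to 0.54) in gCap cells and 1.03 in aCap cells. All 5 coagulation genes were higher in hyperoxia, against 1844 of all 3615 genes. Their list had a median log2 ratio of 0.83, and thrombomodulin (Thbd) had 0.83 (0.52 to 1.15). Of 3 vein markers at 50 CPM, 2 were at least 2-fold higher, Vcam1 and the protease gene Prss23, with a Prss23 ratio of 1.61 (0.80 to 2.53) on 14 and 104 UMIs. Of 6 general capillary markers 4 were lower in hyperoxia, and 3 of them at least 2-fold. These 3 were Gpihbp1, at 554 and 153 CPM with a ratio of -1.86 (-2.16 to -1.55), Kit at -1.22 (-1.85 to -0.59) and Aplnr as above.

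Of 7 p53 target genes at 50 CPM, 3 were at least 2-fold higher and 1 at least 2-fold lower, with a median log2 ratio of 0.65. The cell cycle inhibitor gene Cdkn1a was found in 20 of 42 cells in room air, with a median of 0 and a highest value of 7.62 UMIs per 10000, and in 86 of 94 in hyperoxia, with a median of 4.65 and a highest value of 19.4. Its ratio was 2.28 (1.84 to 2.75), below the 3.29 (3.12 to 3.46) of gCap cells by 1.01 on the log2 scale. Phlda3, a p53-induced repressor of Akt, had 1.10 (0.62 to 1.60) against 2.76 (2.44 to 3.09) in gCap cells and 1.06 in aCap cells. The death receptor gene Fas had 1.38 (0.70 to 2.14). Plk2, a polo-like kinase gene, had 646 and 273 CPM, a ratio of -1.24 (-1.49 to -0.99).

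Of 8 MHC class I genes at 50 CPM, 1 was at least 2-fold lower, the peptide transporter gene Tap1, with -1.45 (-2.17 to -0.73). Of the list 7 genes were lower in hyperoxia, with a median log2 ratio of -0.70, and Tapbp, which encodes the chaperone tapasin, had 0.23 (-0.15 to 0.61). H2-K1 had 1311 and 790.1 CPM, a ratio of -0.73 (-0.89 to -0.57), against -1.43 (-1.50 to -1.35) in gCap cells and -0.79 in aCap cells. Of 8 interferon genes none passed 2-fold, with a median of -0.42. The antioxidant list (8 genes, median 0.40) and the hypoxia and glycolysis list (8 genes, median 0.67) also had no gene past 2-fold. In each, 7 of the 8 genes were higher in hyperoxia, such as the glycolytic enzyme gene Aldoa at a log2 ratio of 0.87 (0.53 to 1.23). The 14 BMP and TGF-beta genes had none past 2-fold and a median of -0.06. The lipid uptake list was split, with Cd36 at 829 and 378 CPM (-1.13, -1.35 to -0.91) and Fabp5 at 32.3 and 82.6 CPM (1.36, 0.50 to 2.32). Of 15 genes known to respond to tissue dissociation, 1, Fosb, was at least 2-fold higher, with a median of 0.28.

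Fgfr1, the fibroblast growth factor receptor gene the study turned on, had few UMIs in arterial ECs, namely 9 UMIs in 8 of 42 cells in room air and 52 UMIs in 31 of 94 in hyperoxia, or 22.3 and 53 CPM, a log2 ratio of 1.25 (0.21 to 2.45). Its mean level of under 50 CPM kept it out of the list counts, and among the 17 and 43 cells with no stromal UMI its log2 ratio was 0.11. Fgfr2 had 4 UMIs in each library. Fgfr3 had more UMIs than Fgfr1, at 96.8 and 261 CPM, with a ratio of 1.43 (0.94 to 1.96) and cells with a UMI numbering 19 of 42 and 80 of 94. Fgfr3 was higher in the capillary cells too, with 1.92 in gCap and 1.17 in aCap cells. The FGF receptor and feedback list had 4 genes at 50 CPM, 1 at least 2-fold higher (Fgfr3) and 2 at least 2-fold lower. The lower genes encode the signalling inhibitors Spry2 and Spry4, which FGF signalling induces. Their ratios were -1.49 (-2.22 to -0.77) and -1.57 (-2.25 to -0.91). Spry2 was lower in gCap and aCap cells too, at -0.98 and -1.02, while Spry4 had -0.02 and 0.13 there. Dusp6 had a ratio of -0.13, or -0.14 (-0.55 to 0.29) without the top cell of each library. The 14 genes of the list together were nearly level, at 653 CPM under room air against 646 under hyperoxia.

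The genes with the largest ratios were named by a fixed rule of size. On the higher side, Zbtb16, a transcription factor gene, was found in 2 of 42 and 50 of 94 cells, on 2 and 106 UMIs. The actin-associated gene Fam107a was found in 3 of 42 and 48 of 94 cells, a ratio of 3.66 (2.27 to 5.56), or 4.50 (2.62 to 7.57) without the top cell of each library. Cd55, which encodes a complement inhibitor, was found in 5 of 42 and 39 of 94 cells, a ratio of 2.94 (1.77 to 4.41), and Fam101b, an actin regulator, in 23 of 42 and 84 of 94, a ratio of 2.35 (1.93 to 2.80). These 4 genes differed in many cells. Others rested on a few cells. Fabp4, a fatty acid binding protein gene, had no UMI in room air and 230 in hyperoxia, at least 31.5-fold higher than the floor of 3 UMIs per library allows, but 97.4% of these lay in 3 cells. For the growth factor gene Igf2, 43.7% of the hyperoxia UMIs lay in 1 cell, for the IGF-binding protein gene Igfbp3 57.7%, and for the protease inhibitor gene Serpina3g 77.8%. Without the top cell of each library the Serpina3g ratio was 1.03 (-0.55 to 3.04), that of Igf2 2.68 (1.51 to 4.17) in place of 3.29, and that of Igfbp3 3.12 (1.86 to 4.78) in place of 3.70. Cytl1 and the Wnt inhibitor gene Sfrp1 were found in 33 and 27 hyperoxia cells and in 5 room air cells each, with ratios of 2.36 (1.76 to 3.03) and 2.31 (1.66 to 3.02). In room air 1 cell held 71.4% of the 21 Sfrp1 UMIs, and without the top cell of each library the Sfrp1 ratio was 3.87 (2.72 to 5.33). Cytl1 was 16.6 times (10.7 to 27.3) higher in hyperoxia cells with Gkn3 or Dkk2 than in the others, and among cells without these genes its ratio between the conditions was 0.27 (-0.92 to 1.58).

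On the lower side, St8sia4, which adds polysialic acid to surface proteins, had 119 and 13.3 CPM, a log2 ratio of -3.17 (-4.18 to -2.26), in 19 of 42 and 9 of 94 cells. The transcription factor gene Sox11 had 151 and 35.7 CPM, a ratio of -2.09 (-2.73 to -1.46), and the homeobox gene Hlx a ratio of -1.87 (-2.54 to -1.21). In gCap and aCap cells Sox11 had -1.19 and -0.64, and Hlx -1.77 and -0.53. The cell adhesion gene Cadm1 had -1.96 (-2.71 to -1.23), close to the -1.93 (-2.17 to -1.68) of gCap cells, while St8sia4 had only -0.68 (-0.84 to -0.52) there. The activin subunit gene Inhbb had -1.78 (-2.52 to -1.06) on 41 and 29 UMIs. Rps27rt, with a ratio of -2.46 (-3.24 to -1.73), is a retrogene copy of Rps27, and how the counting split their reads is uncertain.

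Among the stromal genes that were higher in hyperoxia, Mfap4 and Col3a1 had fewer CPM in arterial ECs than in B cells. B cells were shallower, with a median of 2975.5 UMIs in hyperoxia against 9174 in arterial ECs, and the part of free RNA was not tested. All 4 fibroblast markers at 50 CPM were at least 2-fold higher (Col1a1, Col1a2, Col3a1 and Mfap4), but Mfap4, at 64.6 and 535 CPM, had 943 and 596 CPM in B cells, and 1 arterial EC held 53.7% of its hyperoxia UMIs. Its ratio was 3.05 (2.48 to 3.68) with and 2.03 (1.42 to 2.70) without the top cell of each library. Col3a1 was at 52.1 and 264 CPM, against 410.2 and 612 CPM in B cells, and 71.0% of its hyperoxia UMIs lay in 3 cells. The smooth muscle gene Acta2 had 66.0% in 1 cell. Without the cells that held a stromal UMI, the log2 ratios were 1.61 for Eln, 1.24 for Mgp, 1.38 for Fbln5, -1.04 for Hes1, -0.54 for Cxcl12 and 1.83 for Vcam1, all in the same direction as with them.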

How the data were processed

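Lung cells of 8 pooled mice per condition were profiled by 10x Genomics 3' single-cell RNA sequencing. The authors counted UMIs against mm10 and deposited raw counts per gene and barcode. The submitters' processing notes name Cell Ranger 2.1.1 and the matrix headers software 3.1.0, whereas the methods name a later Cell Ranger and, for the kit, the labels and the methods differ. Rows with the same symbol were summed (27998 features, 27933 symbols). Gates, gene lists and members were chosen with earlier results of these data known.

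Cells were taken with the limits given in the report. gCap cells had at least 3 UMIs of Aplnr, Kit, Sema3c and Gpihbp1 and none of Ednrb, Fibin, Tbx2 and Apln, aCap cells at least 3 of the latter 4, both without arterial or venous UMIs. Venous cells had at least 2 UMIs of Slc6a2 and Car8 and fewer than 3 of the arterial genes, and B cells at least 3 of Cd79a and Cd79b with no Cdh5, Cldn5, Epcam or Cd3e. UMIs were summed over the cells of a kind and given as CPM, UMIs per 1e+06 of their total. Levels carry exact Poisson intervals, shares exact Clopper-Pearson intervals and ratios exact conditional intervals (95%, counting error only), and the difference of 2 log2 ratios an interval from their counting errors. There is no test, with 1 library per condition. The steps were checked on simulated data.

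Named genes were the 4 selection genes, Fgfr1 and Fgfr2, up to 4 genes per list with the largest absolute log2 ratio at a mean of at least 50 CPM, the 15 genes leading the arterial ECs, and the 12 highest and 12 lowest ratios whose level was not below that of non-endothelial cells in the library where they are higher. Other list genes were named for their role or after their values were seen. Doublets were ranked against simulated ones, up to 3.39% of cells in room air and 10.6% in hyperoxia, and were kept in the main values. Clusters used the Leiden method at resolution 1 on 30 principal components of 2000 variable genes.

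Python 3.11.15, numpy 2.4.6, scipy 1.17.1, pandas 2.3.3, scikit-learn 1.9.0, igraph 0.11.9, leidenalg 0.10.2 and matplotlib 3.10.9 were used. Alternatives were other cell limits, 2 or 5 arterial UMIs, no doublets, no stromal UMI, other scalings, a mean over cells and 20 or 100 CPM. Bulk RNA-seq of isolated ECs was not analysed here.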

Additional observations from a re-analysis of the deposited data

Results flagged for a closer look

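Several matrix genes differed between the conditions in opposite directions in arterial ECs and in at least 1 kind of capillary EC. For Eln the hyperoxia library stood to the room air library at a log2 ratio of 1.29 in arterial ECs and of -1.73 in aCap cells. Htra1 had 1.20 and -1.46 in the same cells, and Col3a1 2.34 and -1.05. The gCap cells did not share this contrast for Col3a1, at 2.39, or for Htra1, at 0.51 on 4.78 and 6.78 CPM. Eln was nearly level in gCap cells, at -0.12. Fbln2 had 1.03 in arterial ECs, -1.17 in gCap cells and -2.09 in aCap cells. These differences were not tested, since each condition is 1 library. Fibroblast markers summed to 3145 CPM in the aCap cells of room air and 2036 CPM in those of hyperoxia, against 199 and 1152 CPM in arterial ECs, and their part in the aCap ratios was not tested. Fbln2, in contrast, was at 0.459 and 4.57 CPM in B cells.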

How the results depend on the processing

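No paired analysis was possible because there is 1 library per condition. Without stromal UMIs (17 and 43 cells), 273 genes were at least 2-fold higher and 247 lower in hyperoxia, against 131 and 114 over all arterial ECs. At a minimum of 20 CPM the counts were 346 and 302, and at 100 CPM 63 and 47. With at least 5 arterial UMIs the share in room air was 3.09%. The median log2 ratio of the 19 other arterial genes, -0.15, became 0.30 without stromal UMIs, 0.11 as a mean over cells and 0.15 among cells with no Gkn3 or Dkk2 UMI, an alternative chosen after seeing the data, as was leaving out the top cell of a gene. With at least 2 arterial UMIs the log2 ratios of Col3a1, Col1a1 and Col1a2 were -0.12, -0.63 and -0.27, and Col3a1 was -0.50 without stromal UMIs. Emp2 was -0.48 without Gkn3 or Dkk2 cells. The cause was not tested. The 20 and 100 CPM limits leave each ratio unchanged. Under the other settings, 87 to 129 of the 131 genes at least 2-fold higher stayed past 2-fold, and 76 to 114 of the 114 lower ones. Igf2 and Igfbp3, with log2 ratios of 3.29 and 3.70, had 0.37 and 0.53 without Gkn3 or Dkk2 cells. Ratios on under 20 UMIs in a library, such as Fgfr1, are limited by depth.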
